A study of Rattus norvegicus with 20 samples.

Results

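The cytosolic ribosomal protein genes were followed in the ventral hippocampus of rats that received a microRNA mimic. They were the genes whose symbol follows the pattern Rpl or Rps with a number, optionally ending in a or x, plus Rplp0, Rplp1, Rplp2 and Rpsa. Symbols of pseudogenes and of "-like" genes were not taken, and a probe set had to carry exactly 1 symbol. These rules gave 70 genes, 44 of the large subunit and 26 of the small subunit, out of 22093 genes with a probe set of 1 symbol. The brightest of a gene's probe sets, by its mean over the 20 arrays, stood for the gene. All 70 lay above the limit for dim genes and were among the 15465 genes tested. Rpl41 and Rps27a were not analysed here.

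The rats were male Sprague-Dawley animals aged 2 months. They received bilateral injections into the ventral hippocampus of either a miR-17-5p mimic (200 pmol in 1.5 µl of water) or a scrambled small RNA as control, with 11 to 13 animals per condition. RNA of the whole homogenate and of synaptoneurosomes, a preparation enriched in resealed synaptic endings, was measured on 5 arrays for each of the 4 groups. Each group is named here by its fraction and by what was injected (control for the scrambled RNA). Nothing in the labels ties an array to one animal. The p-values therefore describe the spread among the arrays themselves, and 5 arrays per group limit the precision.

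Cytosolic ribosomes consist of a large subunit, which joins amino acids, and a small subunit, which reads the mRNA. Their protein genes are transcribed in every cell, and many of their mRNAs start with a C followed by a run of pyrimidines, the 5′ terminal oligopyrimidine tract, through which mTOR signalling and the RNA-binding protein LARP1 adjust their translation. In neurons, mRNAs of ribosomal proteins are also found in dendrites and axons. The comparison of fractions shows which of these mRNAs were relatively more or less abundant in the synaptic preparation, and the comparison of treatments which of them differed after the mimic was supplied.

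The microRNA supplied was miR-17-5p. Its rat mature sequence from RefSeq (GRCr8, chr15:98587861-98587883, plus strand, gene Mir17) is shown with the seed, bases 2 to 8, in capitals, since the seed is the part with which a microRNA recognises its targets.
rno-miR-17-5p: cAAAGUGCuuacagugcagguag

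The 5′ ends of some of the members named below are shown because many mRNAs of this gene family are described with the pyrimidine tract. It is not particular to them, and other mRNAs described with it are listed below. Each is the RefSeq sequence of GRCr8 from 15 bases before to 15 bases from the annotated start, 5′ to 3′ on the strand of the gene. Capitals mark a tract that begins exactly at the annotated start.
Rplp0 (chr12:46718376-46718405, minus strand): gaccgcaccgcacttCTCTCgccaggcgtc
Rplp1 (chr8:71290858-71290887, minus strand): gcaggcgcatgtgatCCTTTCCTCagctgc
Rps7 (chr6:50999431-50999460, minus strand): tcgcgagagctgtgtCTCTTTCTaagccgg
Rps15 (chr7:10068101-10068130, minus strand): cgctgacaccgcttcCTTTTCCCagcagcc
Rplp2 (chr1:205975906-205975935, plus strand): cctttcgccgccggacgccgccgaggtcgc
Rpsa (chr8:128728864-128728893, plus strand): cctttccgcgctaccctggaacgggtccgt
Rpl24 (chr11:58128391-58128420, minus strand): gaatttagggaggagattctctaccctata
Rps6 (chr5:106420526-106420555, minus strand): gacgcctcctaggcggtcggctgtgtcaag
The first 4 of these genes carry a tract at the annotated start and the last 4 do not. Start windows were matched for 60 members. A C followed by at least 4 pyrimidines, searched on the strand of the gene only, began exactly at the start in 24 of them (40%), 17 of 37 in the large and 7 of 23 in the small subunit, against 722 of 27457 windows of all genes (2.63%). With the position relaxed to within 10 bases of the start and the length raised to a C and at least 6 pyrimidines, 37 of the 60 members (61.667%) and 7.958% of all windows had one. Annotated starts can miss the true start by some bases, so a window without a tract says only that these letters do not begin there.

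Array quality was judged on facts of the whole series first. On the leading component of variation within groups (52.2% of the variance), synaptoneurosome control 4, synaptoneurosome control 5 and synaptoneurosome mimic 5 scored 30.2 to 53.0, while the other synaptoneurosome arrays scored -6.93 or lower. The labels describe column purification of homogenate RNA and alcohol precipitation of synaptoneurosome RNA, so the effects of fraction and of purification cannot be told apart. All 4 measured nuclear markers fell in synaptoneurosomes (median -3.05 in control and -2.62 in mimic rats). All 6 endothelial markers fell as well (median -2.30 and -2.32), and 4 of 6 astrocyte markers rose (median 0.46 and 0.39). Of 7 excitatory neuron markers, 3 were higher and 3 lower in control rats, and 1 was higher and 3 lower in mimic rats. Of 6 interneuron markers, 1 was higher and 0 lower in control rats (median -0.24), and 0 were higher and 3 lower in mimic rats (median -0.91). Of 7 microglial markers, 3 rose in control rats and 1 in mimic rats (median 0.41 and 0.08), and 0 fell. Homogenate and synaptoneurosome mimic 5 carried more choroid plexus RNA than any other array, with a list mean of 7.87 and 7.95 against 5.33 to 5.72 elsewhere.

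The ribosomal protein genes moved together from array to array, and this joint movement was wider than the differences between the groups. The mean log2 value of the 70 members on an array was 9.94 ± 0.13 (SD, n = 5) in homogenate control, 10.03 ± 0.29 in homogenate mimic, 10.09 ± 0.49 in synaptoneurosome control and 9.97 ± 0.16 in synaptoneurosome mimic. These group means span less than the SD of the synaptoneurosome controls. In bulk RNA of this kind, fewer cells or endings of a type and less RNA per cell cannot be told apart.

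On the synaptoneurosome control arrays 1 to 5 the member mean was 10.31, 10.58, 9.94, 9.32 and 10.30. Array 4 was the lowest of its group for all 70 members, and array 2 was the highest for 45 of them. In homogenate mimic the 5 arrays gave 9.91, 9.86, 9.75, 10.47 and 10.15, and array 4 was the highest for 56 members. In synaptoneurosome mimic they gave 9.95, 10.19, 9.94, 10.00 and 9.76, with array 2 highest for 58 members and array 5 lowest for 52. Homogenate control was the tightest group, with 10.00, 9.96, 9.75, 9.90 and 10.10, and its array 3 was the lowest for 55 members. Both subunits had the same lowest and the same highest array in each of the 4 groups, as the plot of the means on each array shows. Protein genes of the mitochondrial ribosome, a separate set of nuclear genes, had close synaptoneurosome control means on array 4 (6.75) and array 3 (6.70, the lowest). Their difference of synaptoneurosome minus homogenate in control rats was still lowest in pair 4, at -0.43. Pairs 1, 2, 3 and 5 gave -0.35, -0.15, -0.36 and -0.1. In mimic rats pair 4 was lowest as well (-0.69), and homogenate mimic 4 was their highest array of that group (7.45).

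**Figure D1:**
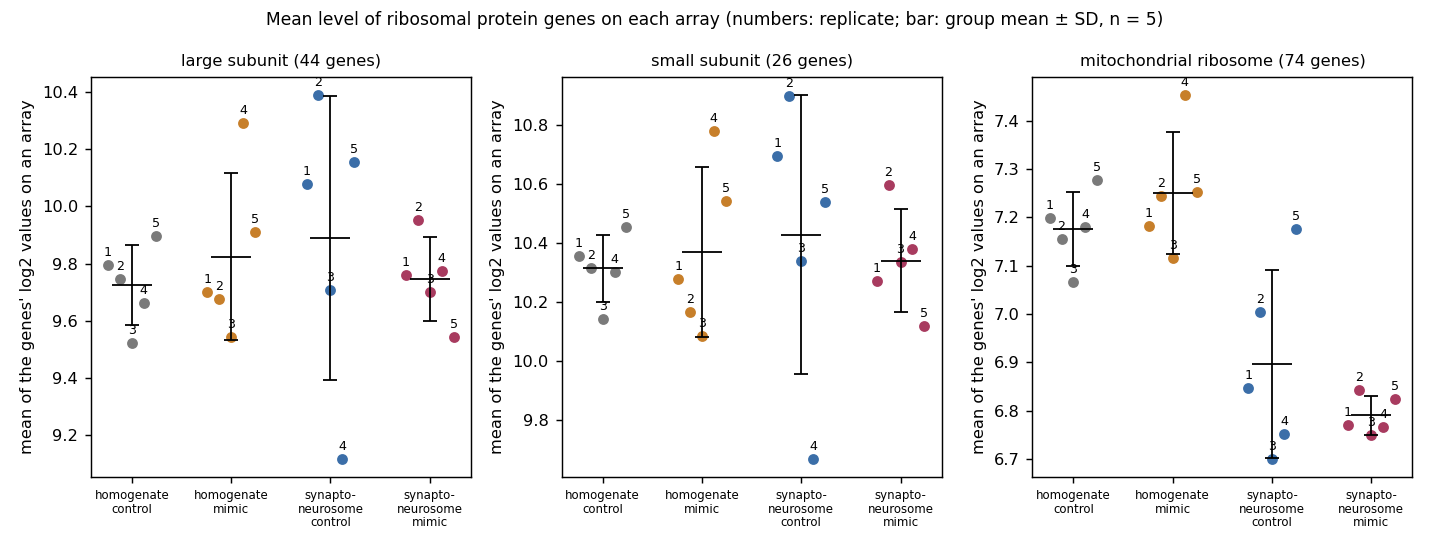
Mean log2 value of the 44 large subunit genes, the 26 small subunit genes and 74 mitochondrial ribosomal protein genes on each of the 20 arrays (points, numbered by replicate), with the group mean and SD (black, n = 5); the panels have separate vertical scales that do not start at 0. Synaptoneurosome control 4 is the lowest array for both cytosolic subunits, and homogenate mimic 4 stands above the rest of its group.

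The spread of single members shows the same. Their median SD within a group was 0.137 in homogenate control, 0.279 in homogenate mimic, 0.461 in synaptoneurosome control and 0.178 in synaptoneurosome mimic, against 0.122, 0.114, 0.215 and 0.169 over all tested genes. Rps29, a small zinc-binding protein of the small subunit, had the largest SD in homogenate mimic (1.07) and in synaptoneurosome control (1.41). Its 5 synaptoneurosome control values were 14.96, 16.62, 14.44, 13.35 and 16.56, and in homogenate mimic array 4 stood at 16.57 while the others lay between 14.06 and 14.77. Rpl34 of the large subunit had high values on the same arrays, 13.14 and 13.10 on synaptoneurosome control 2 and 5 and 13.34 on homogenate mimic 4, against 10.70 to 12.13 on the other arrays of those groups. Other members did not share that profile. Rps28, which lies near the mRNA exit of the small subunit, was highest on synaptoneurosome control 1 (10.89) and stood at 10.20 on array 2 and 9.95 on array 5.

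**Figure D2:**
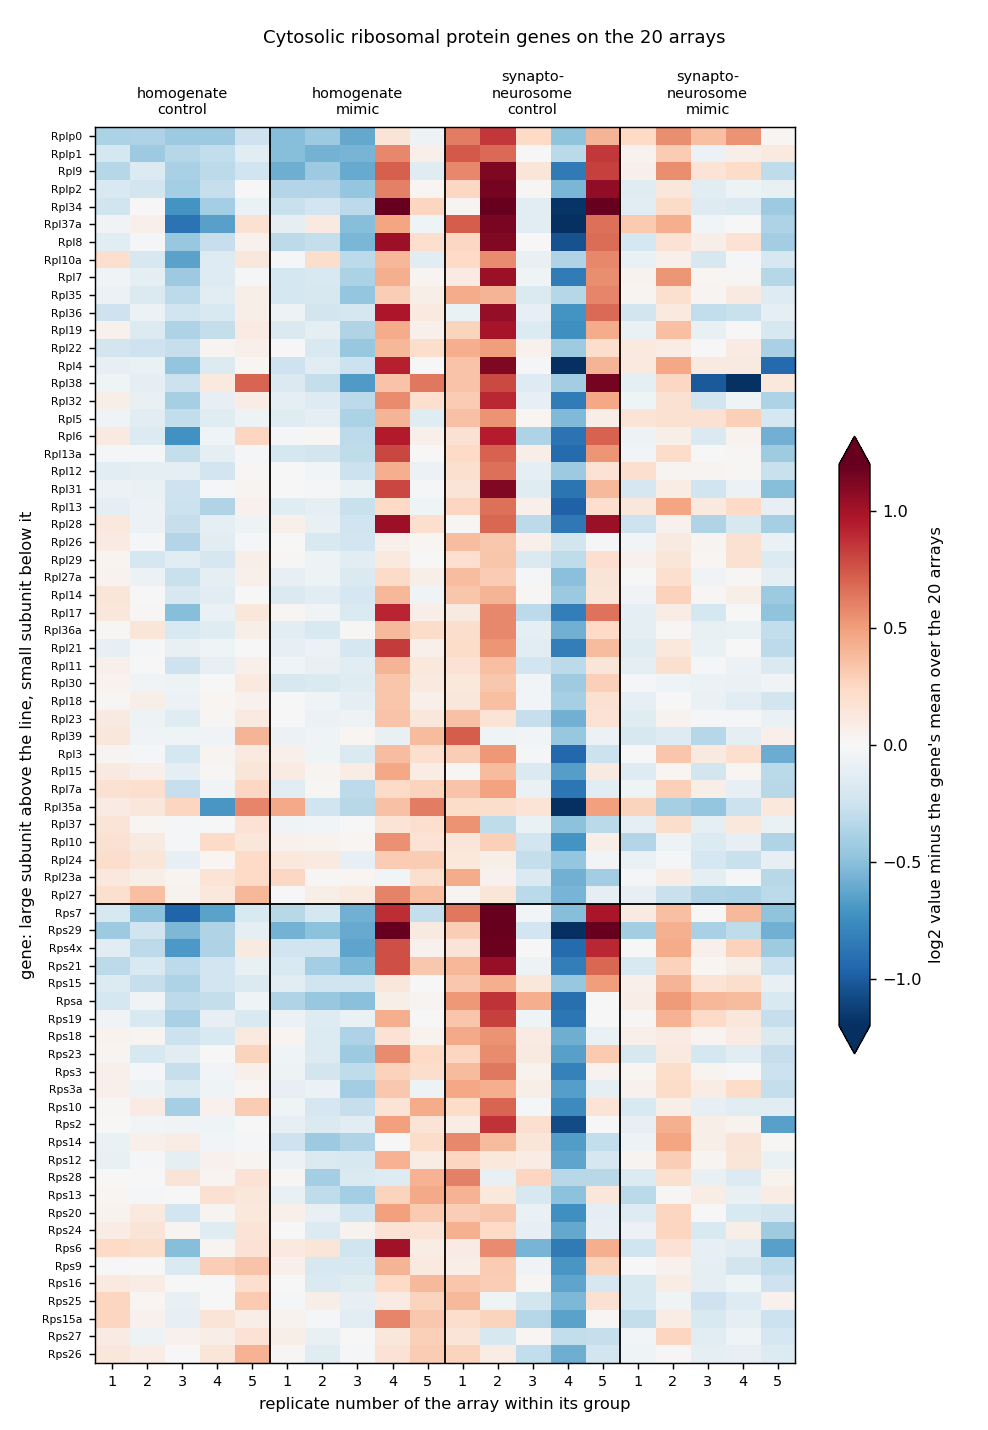
Log2 value of each of the 70 genes minus its own mean over the 20 arrays (colour, cut at 1.2 either way), with arrays in columns by group and genes in lines, large subunit above and small subunit below, ordered by the difference between fractions in control rats. The column of synaptoneurosome control 4 is blue for nearly every gene, and the columns of synaptoneurosome control 2 and homogenate mimic 4 are mostly red.

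In control rats, the median ribosomal protein mRNA was close to its homogenate level in synaptoneurosomes, with 4 members called higher and 1 lower. Rplp0, Rplp1, Rps7 and Rps15 rose, and Rpl27 fell, by limma with Benjamini-Hochberg adjustment over all tested genes and an adjusted p below 0.05 for a call. Over all 15465 genes, 11.8% were called higher and 28% lower. The members' 4 of 70 (5.71%) and 1 of 70 (1.43%) were both below those shares. The median log2 difference was 0.12 over the members, 0.19 in the large and 0.03 in the small subunit, and -0.06 over all tested genes. Of the members, 47 lay above 0 and 23 below. The few calls do not show equal levels, because the members varied widely among these arrays. Their median SD in synaptoneurosome control was 0.461 against 0.215 over all tested genes. Without synaptoneurosome control 4 the median was 0.30, with 21 higher and 0 lower (1662 and 3833 of all 15465 genes). Without synaptoneurosome control 2 it was -0.00, with 1 higher and 2 lower (1848 and 4404 of all genes).

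Rplp0, Rplp1 and Rplp2 form the stalk of the large subunit that recruits the translation factors with GTPase activity. Rplp0, the stalk base, stood at 10.50, 10.51, 10.44, 10.44 and 10.63 on the homogenate control arrays and at 11.49, 11.73, 11.12, 10.40 and 11.29 on the synaptoneurosome control arrays. Synaptoneurosome control 4 lay below the homogenate range and the other 4 arrays above it. The difference was 0.70 ± 0.19 (limma standard error, 5 against 5 arrays; adjusted p = 0.00764). In mimic rats the homogenate arrays read 10.37, 10.44, 10.27, 11.03 and 10.82 and the synaptoneurosome arrays 11.12, 11.44, 11.24, 11.42 and 10.90, a difference of 0.64 ± 0.19 (limma adjusted p = 0.0124). The ranges overlapped only through homogenate mimic 4 and synaptoneurosome mimic 5. Rplp0 was called higher in both treatments in each of the 20 fits without 1 array and in each of the 11 other alternatives, the scalings included.

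Rplp1, a stalk protein of the outer pairs, stood at 14.08, 13.86, 13.95, 14.00 and 14.17 in homogenate control and at 15.03, 14.97, 14.30, 13.97 and 15.14 in synaptoneurosome control. Again array 4 alone did not exceed the homogenate range. The difference was 0.67 ± 0.22 (limma adjusted p = 0.0227) in control rats and 0.29 ± 0.22 (limma adjusted p = 0.308) in mimic rats, and in control rats the call was lost without synaptoneurosome control 1, 2 or 5 and under quantile scaling. Its partner Rplp2 stood at 10.31, 10.27, 10.09, 10.22 and 10.49 in homogenate control and at 10.74, 11.64, 10.51, 9.95 and 11.56 in synaptoneurosome control. The difference of 0.60 ± 0.26 did not pass (limma adjusted p = 0.0678). With the replicate number as a block it did (limma adjusted p = 0.0453), and in mimic rats it was 0.05 ± 0.26 (limma adjusted p = 0.894).

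Rps7, a small subunit protein that also takes part in ribosomal RNA maturation, had the highest fitted difference of the members in control rats. It read 13.28, 12.98, 12.51, 12.83 and 13.29 in homogenate control and 14.11, 15.02, 13.44, 12.96 and 14.45 in synaptoneurosome control. The synaptoneurosome array was above the homogenate array of the same number in 5 of 5 pairs. The difference was 1.02 ± 0.33 (limma adjusted p = 0.019). This probe set lies on chromosome 15 by its identifier while the gene lies on chromosome 6, and the dimmer probe set on chromosome 6 gave 0.48 (limma adjusted p = 0.112). The call was also lost without homogenate control 3 or synaptoneurosome control 2 and under quantile scaling. In mimic rats the difference was 0.18 ± 0.33 (limma adjusted p = 0.691).

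Rps15, a small subunit protein near the decoding site, read 7.48, 7.37, 7.28, 7.42 and 7.47 in homogenate control and 7.97, 8.08, 7.78, 7.19 and 8.15 in synaptoneurosome control. Array 4 was below all homogenate arrays and the other 4 were above them. The difference was 0.43 ± 0.14 (limma adjusted p = 0.0214) in control and 0.25 ± 0.14 (limma adjusted p = 0.168) in mimic rats. The call in control rats was lost without synaptoneurosome control 2 or 5 and with only the groups compared in the fit. In mimic rats Rps15 was called under 4 of 11 alternatives, at 0.31 without the 3 arrays that stood apart, 0.34 with array weights, 0.35 with array medians set to 0 and 0.48 under quantile scaling (limma adjusted p from 0.00143 to 0.037). Rpsa, a small subunit protein also described as a laminin receptor, did not pass, at 0.37 ± 0.24 (limma adjusted p = 0.226) and 0.48 ± 0.24 (limma adjusted p = 0.112). Its synaptoneurosome control values were 10.16, 10.51, 10.08, 8.74 and 9.65 against 9.33 to 9.60 in homogenate control. Without the 3 arrays that stood apart, Rpsa was called in both treatments, at 0.79 (limma adjusted p = 0.000299) and 0.58 (limma adjusted p = 0.00134).

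Rpl27, a protein of the large subunit, was the one member called in the other direction in control rats. Its homogenate control values were 8.13, 8.30, 7.98, 8.07 and 8.34 and its synaptoneurosome control values 7.97, 8.09, 7.62, 7.38 and 7.82. The array of synaptoneurosomes was below the homogenate array of the same number in 5 of 5 pairs, although the ranges overlapped. The difference was -0.39 ± 0.13 (limma adjusted p = 0.0227). In mimic rats, 7.94, 8.01, 8.06, 8.54 and 8.30 in homogenate faced 7.84, 7.67, 7.58, 7.56 and 7.63 in synaptoneurosomes, with no overlap and -0.51 ± 0.13 (limma adjusted p = 0.00355). The control call was lost without homogenate control 2 or 5 or synaptoneurosome control 3 or 4 and under 4 other alternatives, and the mimic call was lost only under quantile scaling (-0.29, limma adjusted p = 0.0564). Rps26, a protein at the mRNA exit channel, had the next lowest t in control rats and did not pass (-0.31 ± 0.13, limma adjusted p = 0.0599).

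**Figure D3:**
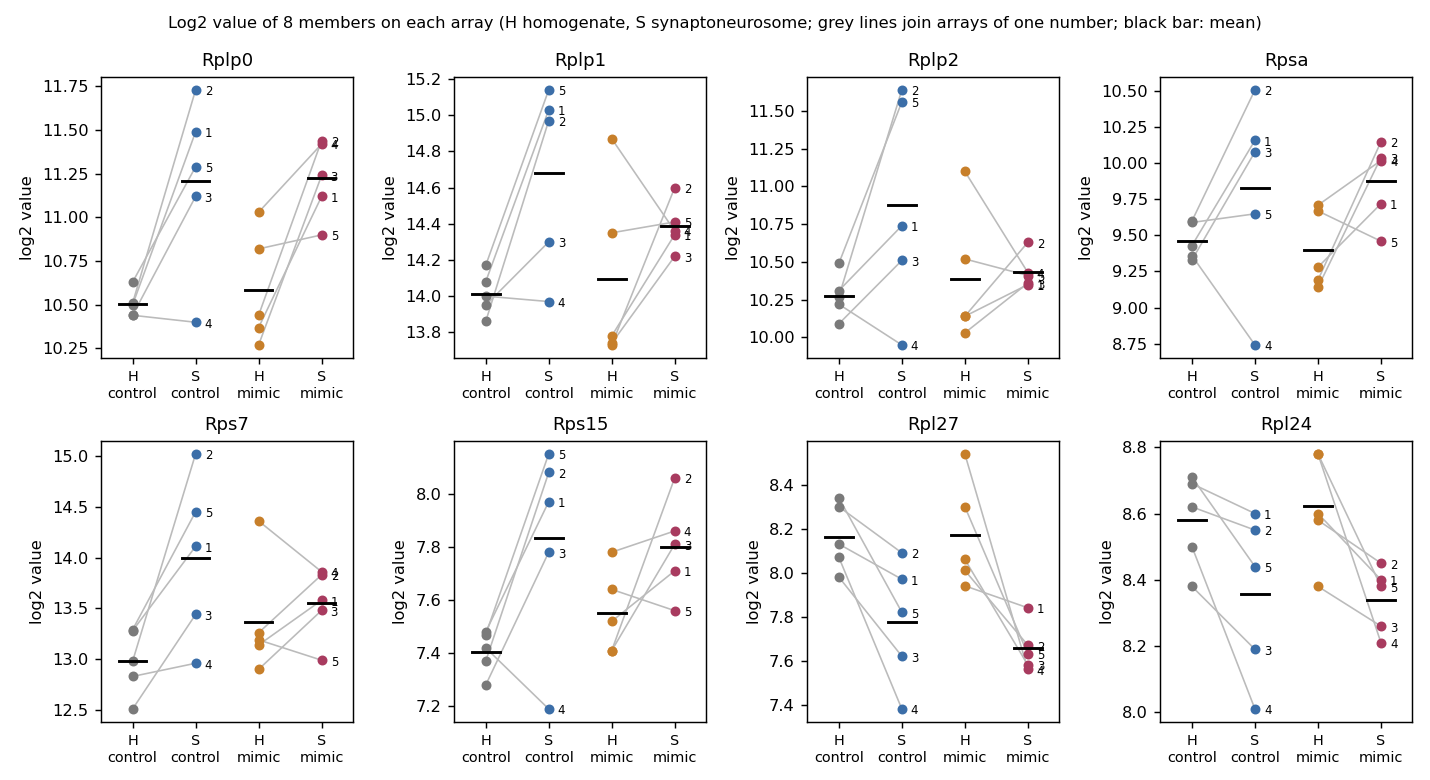
Log2 value of 8 members on every array, with grey lines joining the homogenate (H) and synaptoneurosome (S) arrays of one number and black bars for the group means; vertical scales differ between panels and do not start at 0. In control rats array 4 (numbered) lies lowest in synaptoneurosomes for each of the 8 genes, and Rpl27 and Rpl24 run downward in every pair.

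The counts in control rats turned on single arrays. Without synaptoneurosome control 4, 21 members were called higher and 0 lower, with a median of 0.30. Without synaptoneurosome control 2 the count was 1 higher and 2 lower with a median of -0.00, without synaptoneurosome control 5 it was 2 higher and 1 lower, and without synaptoneurosome control 1 it was 3 higher and 6 lower. Leaving out the 3 arrays that stood apart also gave 21 higher and 0 lower, 4 of them shared with the 5 calls on all arrays. The added calls without those 3 arrays included Rpl5, Rpl9, Rplp2, Rps3, Rps4x and Rpsa.

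The numbered pairs of fractions differed in the same way. In control rats the synaptoneurosome array exceeded the homogenate array of its number for 62, 61 and 51 of the 70 members in pairs 1, 2 and 3, for 1 in pair 4 and for 43 in pair 5. The median differences were 0.27, 0.56, 0.20, -0.62 and 0.14. In mimic rats the counts were 35, 62, 51, 7 and 2, with medians of 0.01, 0.29, 0.18, -0.44 and -0.40. Pairs 2 and 3 were thus above 0 and pair 4 below 0 in both treatments, and pair 5 lay on opposite sides. Pair 4 in control rats holds the low synaptoneurosome array and pair 4 in mimic rats the high homogenate array described above.

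In mimic rats 3 of the 70 members were called. Rplp0 rose and Rpl27 and Rpl24 fell, 1 of 70 higher (1.43%) and 2 of 70 lower (2.86%), where 11% of all tested genes were called higher and 30.8% lower. The median was -0.08 in the members, -0.08 in the large and -0.06 in the small subunit, and -0.08 over all tested genes; it turned to 0.03 with array medians set to 0, to 0.06 under quantile scaling and to 0.01 without homogenate mimic 4. Setting array medians to 0 raised the median of all tested genes by 0.11, and relative to all genes the members stood at 0.00 as deposited, 0.01 after that scaling and 0.06 under quantile scaling. With array weights 8 members were called higher and 4 lower, and the median was 0.06 against -0.07 over all tested genes. In control rats the members stood 0.18 above all genes as deposited, 0.18 with array medians set to 0 and 0.22 under quantile scaling.

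Rpl24, a large subunit protein at the bridge to the small subunit, read 8.60, 8.58, 8.38, 8.78 and 8.78 in homogenate mimic and 8.40, 8.45, 8.26, 8.21 and 8.38 in synaptoneurosome mimic. Every pair fell, and the ranges met only at homogenate mimic 3. The difference was -0.28 ± 0.11 (limma adjusted p = 0.0413), and in control rats it was -0.22 ± 0.11 (limma adjusted p = 0.108). The call was lost in 8 of the 20 fits without 1 array, those without homogenate mimic 1, 2, 4 or 5 and without synaptoneurosome mimic 1, 3, 4 or 5, and under both other scalings. Rpl10, which joins the large subunit late in its assembly, had groups that did not overlap in mimic rats, 8.02 to 8.55 against 7.64 to 7.94, and did not pass (-0.37 ± 0.15, limma adjusted p = 0.0506). Rpl10 was called in 4 of the 20 fits without 1 array and under 5 of the 11 other alternatives (limma adjusted p from 0.0169 to 0.0496 in the latter). Rpl15 was the other member besides Rpl27 and Rpl10 with groups that did not overlap (-0.28 ± 0.14, limma adjusted p = 0.114). Overlap was not counted over all tested genes, of which 11% were called higher and 30.8% lower here. How unusual these separations are therefore stays unknown. Rps6, the substrate of the S6 kinases, stood at -0.42 ± 0.26 in mimic (limma adjusted p = 0.217) and -0.09 ± 0.26 in control rats (limma adjusted p = 0.812).

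The members with a tract at the annotated start had a median difference between fractions of 0.20 in control rats, with 4 of 24 called higher and 0 lower where 11.8% of all tested genes were higher and 28% lower, and the 36 without one had 0.09 with 0 calls. In mimic rats the medians were -0.00 and -0.08, with 1 of 24 called higher and 1 of 36 called lower, against 11% and 30.8% of all tested genes. The 4 with a call in control rats are those whose starts are printed above with capitals. Every called member with a matched window was printed, so the printed starts alone do not show how often a tract goes with a call. Other members with a tract were neither called nor printed, and the lowest of them in control rats was at -0.31. Rpl27 had no matched window. No test was run on this split, and it shares the array effects described above. It also depends on the exact annotated start, since 37 of the 60 matched members had a longer tract within 10 bases of it.

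The other groups of the translation pathway were set beside all tested genes, of which 28% were lower and 11.8% higher in control rats, and 30.8% lower and 11% higher in mimic rats. Of 74 tested mitochondrial ribosomal protein genes, 40 fell (54.1%) and 0 rose in control rats (median -0.30), and 61 fell (82.4%) and 0 rose in mimic rats (median -0.41). Ribosome assembly factors, which act in the nucleolus and in late maturation, fell for 45 of 70 (64.3%) with 0 higher in control rats (median -0.30). In mimic rats 54 fell (77.1%) and 1, the assembly ATPase Mdn1, rose (median -0.36). Gnl3, a nucleolar GTP-binding protein, was at -0.49 ± 0.07 (limma adjusted p = 1.74e-05) in control rats and -0.55 ± 0.07 (limma adjusted p = 4.43e-06) in mimic rats. Nuclear markers fell in the same arrays, as given above, and their part in the counts was not tested.

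Against the same shares of all genes (28% and 30.8% lower), initiation factors fell for 26 of 39 (66.7%) with 0 higher in control rats (median -0.34) and for 29 (74.4%) with 1 higher, Eif3a, in mimic rats (median -0.46). The cap-binding protein Eif4e was at -0.67 ± 0.10 (limma adjusted p = 2.65e-05) and the eIF3 subunit Eif3d at -0.61 ± 0.07 (limma adjusted p = 3.72e-06) in control rats. Of 8 genes with Eef symbols, listed as elongation factors, 1 fell in control rats, a share of 12.5% that lay below that of all genes. It was Eef1a2, the elongation factor form of neurons and muscle (-0.84 ± 0.13, limma adjusted p = 5.59e-05). Eef1e1 and the kinase Eef2k are on this list by symbol and are not elongation factors themselves. In mimic rats Eef1a2 and Eef1e1 fell and Eef2, which moves the ribosome along the mRNA, rose (0.41 ± 0.16, limma adjusted p = 0.0408). Other mRNAs described with a pyrimidine tract fell for 11 of 24 (45.8%) in control rats (median -0.30) and 13 (54.2%) in mimic rats (median -0.47, with Eef2 higher). That list shares Eef1a1, Eef1a2, Eef1b2, Eef1d, Eef1g and Eef2 with the elongation factor list. It shares Eif3e, Eif3f, Eif3h and Eif4b with the initiation factors and Npm1 with the assembly factors. Fau and Rack1, given below, are also on it, so the counts of these lists overlap. The noncoding host gene Gas5 was at -1.87 ± 0.19 (limma adjusted p = 7.76e-07) in control rats.

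Regulators of ribosomal protein mRNA translation were split. In control rats 12 of 27 fell (44.4%, against 28% of all genes) and 4 rose (14.8% against 11.8%). In mimic rats 9 fell (33.3% against 30.8%) and 5 rose (18.5% against 11%). Tsc2, an inhibitor of the mTOR pathway, was at 0.87 ± 0.22 (limma adjusted p = 0.00388) in control and 1.06 ± 0.22 (limma adjusted p = 0.000744) in mimic rats. Akt1, Mknk2 and Eif2ak2 rose in both treatments, and Tsc1 rose in mimic rats. The RNA-binding proteins Tia1 and Tial1, which bind pyrimidine tract mRNAs under stress, fell in both, with Tia1 at -1.03 ± 0.15 (limma adjusted p = 2.77e-05) in control rats. Larp1, which binds the tract itself, fell by 0.22 on the log2 scale in control rats (limma adjusted p = 0.00869). Ribosomal protein paralogues outside the symbol rule fell for 2 of 4 in each treatment, Rpl7l1 at -0.58 ± 0.09 (limma adjusted p = 5.45e-05) and Rpl22l1 at -0.23 ± 0.09 (limma adjusted p = 0.0489) in control rats. Rack1 and Fau, carried by the small subunit, were not called, at 0.09 ± 0.19 and -0.02 ± 0.19 in control rats (limma adjusted p = 0.716 and 0.929).

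No member passed the test of the mimic against its control in either fraction. In homogenate 0 of 70 were called and 0 had an unadjusted p below 0.05, and among all 15465 genes 0 were called (0% called; 268 had an unadjusted p below 0.05). The median difference of mimic minus control was 0.08 over the members, 0.09 in the large and 0.02 in the small subunit, against 0.02 over all tested genes, with 52 members above 0 and 17 below. Without homogenate mimic 4 the members' median was -0.03, and with array weights it was -0.01. Rpl34 had the highest t, at 11.64, 11.87, 11.16, 11.47 and 11.80 in homogenate control and 11.61, 11.65, 11.56, 13.34 and 12.13 in homogenate mimic. Array 4 alone lay far above the controls, and the difference was 0.47 ± 0.39 (limma adjusted p = 1.0). Rps7 (0.39 ± 0.33) and Rps15 (0.15 ± 0.14) came next, and Rps14, Rps28 and Rps26 had the lowest t (-0.17 ± 0.18, -0.13 ± 0.16 and -0.09 ± 0.13).

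In synaptoneurosomes the mimic groups overlapped the controls for every member, which was not counted over all tested genes. Again 0 of 70 were called (limma adjusted p from 0.933 upward) and 0 of all tested genes (0% called; 542 had an unadjusted p below 0.05). The median was -0.10 over the members, -0.13 in the large and -0.06 in the small subunit, and -0.01 over all tested genes, with 55 members below 0. Without synaptoneurosome control 4 the median was -0.27 (-0.02 over all tested genes) and 20 members had an unadjusted p below 0.05. Such p-values were not counted over all tested genes in that fit. That array was the lowest of its group for all 70 members, so leaving it out lowers the difference for each of them. Without synaptoneurosome control 2 the median was 0.02, and without the 3 arrays that stood apart it was -0.23, with 0 members called in each of these fits. Interneuron markers were called for 0 of 6, with all 6 below 0 (median -0.40), and their part in the members' values was not tested.

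Rpl38, a large subunit protein known in the mouse for its part in translating Hox mRNAs, was the 1 member with an unadjusted p below 0.05 in that comparison. It stood at 12.24, 12.69, 11.74, 11.48 and 13.04 in synaptoneurosome control and at 11.79, 12.14, 10.89, 10.71 and 12.02 in synaptoneurosome mimic. Arrays 3 and 4 of the mimic group were low and the other 3 lay within the control range. The difference was -0.73 ± 0.33 (limma unadjusted p = 0.0414, limma adjusted p = 0.933). Rplp2 and Rpl10a followed at -0.44 ± 0.26 and -0.27 ± 0.18, and Rps12, Rpl37 and Rps27 had the highest t (0.16 ± 0.14, 0.14 ± 0.14 and 0.09 ± 0.10). Rps12 and Rpl37 turned to -0.03 and -0.02 without the 3 arrays that stood apart. Rplp0 (0.02 ± 0.19), Rplp1 (-0.30 ± 0.22), Rpsa (0.05 ± 0.24) and Rps6 (-0.13 ± 0.26) did not pass either.

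The difference of the mimic effect between the fractions had 0 calls among the members and 0 among all tested genes (limma adjusted p of 0.998 or higher for the members; 0% called; 243 of all genes and 0 members had an unadjusted p below 0.05). The median was -0.15 over the members, -0.19 in the large and -0.07 in the small subunit, and -0.03 over all tested genes, and 58 members were below 0. Rps7 had the lowest t at -0.84 ± 0.46, followed by Rpl10a at -0.43 ± 0.26 and Rpl36 at -0.58 ± 0.37. The lowest fitted value was that of Rps29 at -1.18 ± 0.76. Rps14, Rps26 and Rpl37 had the highest t (0.27 ± 0.26, 0.16 ± 0.18 and 0.15 ± 0.19), and Rps14 and Rpl37 turned to -0.04 and -0.01 without the 3 arrays that stood apart. Without synaptoneurosome control 4 the members' median was -0.31, against -0.03 over all tested genes. In that fit 17 members had an unadjusted p below 0.05, with 0 called, and such p-values were not counted over all genes. Without synaptoneurosome control 2 the members' median was -0.06.

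**Figure D4:**
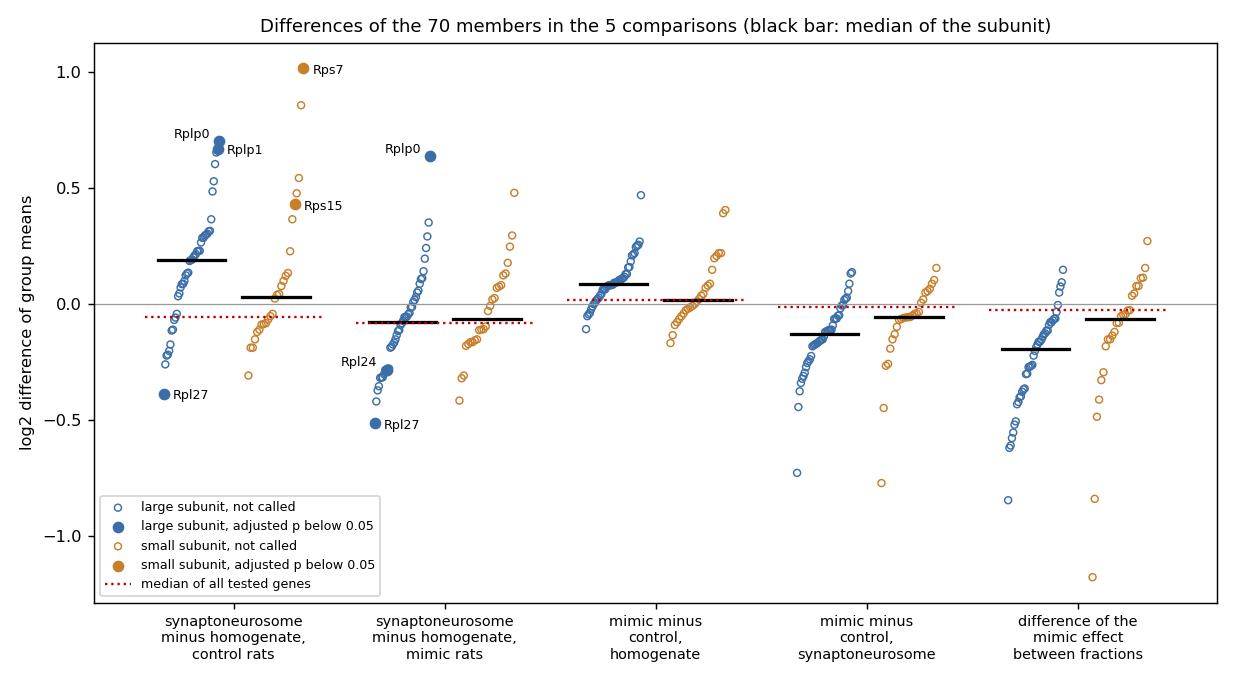
Log2 difference of group means for each of the 70 genes (circles; blue large and orange small subunit; filled where limma's adjusted p was below 0.05) in the 5 comparisons, with the median of each subunit (black bar) and of all 15465 tested genes (red dotted line). Filled circles appear in the comparisons of fractions only, with Rplp0 above 0 and Rpl27 below 0 in both treatments.

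Ribosomal protein genes have many near-identical processed copies in the genome, and the probe sets show how far they can be told apart. The 70 members had 119 probe sets with 1 symbol, 28 members had several, and at most 8 belonged to 1 gene. The chromosome in the identifier matched the gene table for 98.544% of 23010 placed probe sets of all genes. For the members, the brightest probe set lay on the gene's own chromosome for 48, on another chromosome for 10 and was unplaced for 12. Values of those 22 genes, Rps7, Rps29 and Rpl38 among them, are uncertain as to which copy they measure. A pair of probe sets named Rpl39 on chromosomes 7 and 20 held identical values on all 20 arrays.

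Probe sets of one gene mostly ran the same way. Of the 28 members with several, all probe sets had one sign in 19 in control and 25 in mimic rats for the difference between fractions, and 0 members had probe sets called in opposite directions. Some dimmer probe sets on the gene's own chromosome were called where the brightest was not. For Rps24, a small subunit protein, the probe set on chromosome 16 was at -0.41 (limma adjusted p = 0.00153) in control and -0.33 (limma adjusted p = 0.00637) in mimic rats, while the brightest, on chromosome 10, was at -0.09 and -0.11. For Rpl39 the dimmest probe set, on chromosome X, was at -0.33 and -0.42 (limma adjusted p = 0.0185 and 0.00403) and the brightest, unplaced, at -0.06 and -0.19. With the brightest probe set on the own chromosome used throughout, 3 members were called higher and 3 lower in control rats (all genes 1817 and 4336). In mimic rats 1 was called higher and 3 lower (all genes 1697 and 4757).

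Introns of ribosomal protein genes host many small nucleolar RNAs, which guide the modification of ribosomal RNA in the nucleolus. The gene table places 53 inside members, and 1 of them, Snord33 in Rpl13a, had a probe set with a single symbol. Snord33 fell in synaptoneurosomes, with a log2 difference of -3.41 ± 0.43 in control rats (limma adjusted p = 8.12e-06) and -2.60 ± 0.43 in mimic rats (limma adjusted p = 0.0001). Its host Rpl13a was at 0.22 in control and -0.06 in mimic rats and was not called. Snord33 is also one of the 4 measured nuclear markers.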

How the data were processed

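Gene expression was measured on 20 microarrays, with groups and replicate numbers from the sample titles. The deposited values are log2 expression values of 68842 probe sets, none missing. Per the submitters' processing notes, the authors used Transcriptome Analysis Console and RMA, of unstated version, a method that shrinks differences at low signal. Per the labels' protocols, 100 ng of total RNA per sample was amplified. GEO's platform annotation named 23446 probe sets with 1 symbol and 505 with several; old symbols were updated through a RefSeq gene table.

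Values were used as deposited. Each gene was represented by its brightest probe set, and a filter removed the dimmest 30% (mean under 4.97). limma 3.58.1 in R 4.3.3 fitted 1 mean per group (16 residual and 2.56 prior degrees of freedom), two-sided, with Benjamini-Hochberg adjustment over 15465 genes. Errors after ± are limma's standard errors unless marked SD; they pool the spread of all 4 groups, which differed. The fit was tested on simulated data with independent noise per gene and 1 spread for all groups. It therefore did not cover the members' joint movement or the unequal spreads of the groups. Alternatives changed the filter, scaling, variance prior, weights, probe set rule, arrays used and replicate block. Tables and plots used Python 3.11.15 with numpy 2.4.6, pandas 2.3.3 and matplotlib 3.10.9.

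After subtracting group means, homogenate and synaptoneurosome arrays with the same number correlated in all 10 pairs (r across genes 0.10 to 0.48, each highest with its own number), so the numbers pair the fractions.

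The members and lists were chosen with earlier results of these data known. In each comparison the 3 members with the highest and the 3 with the lowest moderated t were named, plus Rplp0, Rplp1, Rplp2, Rpsa and Rps6. Pathway genes were taken from the 2 with the largest absolute t of each list in each comparison of fractions. Dimt1, Wdr12, Eif4a2 and Eef2k also met that rule, and their values are not given above. Larp1 was named outside it. Rps29, Rpl15, Rps24, Rpl39, the members listed without the 3 arrays that stood apart, and the single pathway genes that rose were named after their values were seen.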

Additional observations from a re-analysis of the deposited data

Results flagged for a closer look

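Among 92 groups of 5 arrays examined, 5 held an array that lay apart from the others of its group by Dixon's criterion. Chance gives about 1 in 20, so 5 of 92 is near the chance share. All 5 were groups of named members. Homogenate mimic 4 was that array for 3 genes. It stood at 14.36 for Rps7, where the next array was at 13.26 and the lowest at 12.90. It stood at 10.53 for Rpl36 (next 9.68, lowest 9.34) and at 8.55 for Rpl10 (next 8.17, lowest 8.02). This is the array that was highest of its group for 56 of 70 members. For Rps6, homogenate control 3 was at 8.61, below the next array at 9.15 and the highest at 9.36, and it was the lowest of its group for 55 members. For Rplp2, synaptoneurosome mimic 2 was at 10.63, above the next at 10.43 and the lowest at 10.35, and it was the highest of its group for 58 members.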

How the results depend on the processing

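With the replicate number as a block, pairing the fractions, 5 members were called higher and 1 lower in control rats (all genes 2056 and 4691). In mimic rats 1 was called higher and 2 lower (all genes 1872 and 5108). Rplp2 in control rats passed (adjusted p = 0.0453, from limma), and the block changed no other call of a named member. Across treatments the numbers share variation in part: synaptoneurosome arrays of numbers 1, 2, 3 and 5 correlated at 0.55, 0.59, 0.52 and 0.83, each best with its own number, and number 4 at -0.30. In homogenate numbers 3 and 5 (0.28 and 0.41) were best with their own and the others (0.02 to 0.05) were not. A block of the number over treatments left 0 members called in either fraction, with 2 and 1 at an unadjusted p below 0.05. Of the counts and medians recomputed, 426 stayed within 1.5 times the count or 1 SD and 36 moved, all of them counts of the 2 comparisons of fractions. Without 1 array, the count in control rats ranged from 1 to 21 higher and 0 to 6 lower, and in mimic rats from 1 to 3 higher and 1 to 4 lower. Over all tested genes these fits called 1457 to 2167 higher and 3833 to 4581 lower in control rats. In mimic rats they called 1356 to 1852 higher and 4247 to 4919 lower. Without the 3 arrays that stood apart, the members' count was 21 higher and 0 lower in control rats (all genes 2288 and 4486). In mimic rats it was 5 higher and 3 lower (all genes 2485 and 5480). With array medians set to 0 it was 7 higher and 1 lower in control rats (all genes 2844 and 3240). In mimic rats it was 3 higher and 1 lower (all genes 3210 and 3434). With array weights it was 7 higher and 0 lower in control rats (all genes 1892 and 4210). In mimic rats it was 8 higher and 4 lower (all genes 2974 and 5801). Quantile scaling gave 0 lower in control rats (all genes 3108), and 5 higher and 0 lower in mimic rats (all genes 2127 and 2982). With only the compared groups in the fit, 0 members were lower in control rats (all genes 3589). In mimic rats 2 were higher and 4 lower (all genes 1720 and 4873). The brightest probe set on the gene's own chromosome, chosen after seeing the data, gave 3 lower in control rats (all genes 4336). Among all genes called in control rats, 29.6% were higher as deposited, 46.7% with array medians set to 0 and 39.6% under quantile scaling, and in mimic rats 26.3%, 48.3% and 41.6%. Signs turned for values that were not called: mimic against control in synaptoneurosomes for Rps12 (-0.03) and Rpl37 (-0.02) without the 3 arrays and for Rpl37 with array weights (-0.03), the difference between fractions of Rps6 in control rats without the 3 arrays (0.01) and under quantile scaling (0.02), and the difference of the mimic effect of Rps14 (-0.04) and Rpl37 (-0.01) without the 3 arrays. Without 1 array, Rps6 in control rats ranged from -0.25 to 0.11 and Rplp2 in mimic rats from -0.04 to 0.23. The cause was not tested.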
